A study of Mus musculus with 6 samples.

Results

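Solute carriers that move glucose, amino acids, monocarboxylates and fatty acids across membranes were examined in RNA-Seq of mouse sciatic nerves at postnatal day 9. Genes were taken by symbol alone, as every row whose symbol starts with *Slc*, the family number 1, 2, 3, 5, 6, 7, 16, 27, 38 or 43 and an a with a number. The rule found 106 of 46603 rows. It uses no measured value, although it was set with earlier results of these data known. Of these rows 103 are transporter genes or their subunits. The other 3 are *Slc7a6os*, named as an opposite-strand neighbour of *Slc7a6*, the pseudogene *Slc2a4rg-ps* and the antisense gene *Slc6a19os*, and they stay outside the sums and counts of transporters. All 103 transporter genes are protein-coding in the annotation.

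RNA came from 3 control mice, which carried the conditional *Ep400* alleles without Cre, and 3 *Ep400ΔPNS* mice, which carried the same alleles with *Dhh::Cre*. *Dhh::Cre* removes the chromatin remodeler Ep400 in Schwann cells (SCs), whereas other cells of the nerve keep it. The labels describe the strain as a mixed 129SvJ/C57Bl/6J background. The values are the authors' mean over all 6 libraries, so each level below describes nerves of both genotypes together, and differences between the genotypes are not analysed here. A spread between mice cannot be given for such a mean, nor can fewer cells of a type be told from less RNA per cell in a whole nerve. *Ep400* itself had an authors' mean of 4490 normalized counts.

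A peripheral nerve is closed off by a perineurium and by tight vessels, so that sugars and amino acids enter it through carriers. SCs take up glucose, can pass lactate to axons through monocarboxylate transporters, and build myelin from fatty acids and amino acids. Solute carriers either let a substrate run down its gradient, as the glucose transporters do, or couple it to sodium, protons or an exchanged substrate.

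Levels of different genes were compared per length. The authors' mean was divided by the length of a gene's merged exons and scaled to sum to 1000000 over all genes, and this length-scaled level is given in parts of that sum (ppm). The means themselves sum to 25608535, which is the size of an average library on the normalized scale. Counting alone gives a mean of 10 a 95% interval of 7.63 to 12.9 and a mean of 1000 one of 975 to 1026, taking normalized counts as reads of 6 libraries. These intervals cover counting error only. The tissue label was checked against marker genes, which stood at 192 ppm or more for 8 SC genes. Markers of other cells were present too, from 99.9 to 14612 ppm for 5 fibroblast genes and 24.3 to 193 for 4 endothelial genes. They stood at 36.9 to 667 ppm for 4 skeletal muscle genes, 3.98 to 68.7 for 4 adipocyte genes and 0.122 to 7.80 for 4 neuronal genes. For 3 erythroid genes the range was 8.45 to 1160 ppm, for 2 perineurial genes 89.0 to 166. For 4 pericyte and smooth muscle genes it was 29.55 to 232 ppm. For 4 macrophage genes it was 15.9 to 81.1 ppm, for 3 T cell genes 0.0219 to 3.93. Which of these cells held the transporter RNA was not tested.

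Most solute carriers of these families were measurable in the nerve, but few were abundant. Of the 103 transporter genes, 72 (69.9%) had a mean of at least 10, compared to 66.1% of all protein-coding genes. Of the 31 below that mean, 22 lay between 1 and 10, 9 below 1, and of these *Slc7a12* was listed at 0. The median level of the 72 genes was 5.50 ppm, beside 17.1 ppm for protein-coding genes of at least the same mean. Only 19 transporter genes lay above that protein-coding median, and 6 reached 100 ppm. A few genes thus made up most of the transporter RNA, the top 5 holding 48.5% and the top 10 holding 68.5% of the summed level of 1407 ppm.

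**Figure D1:**
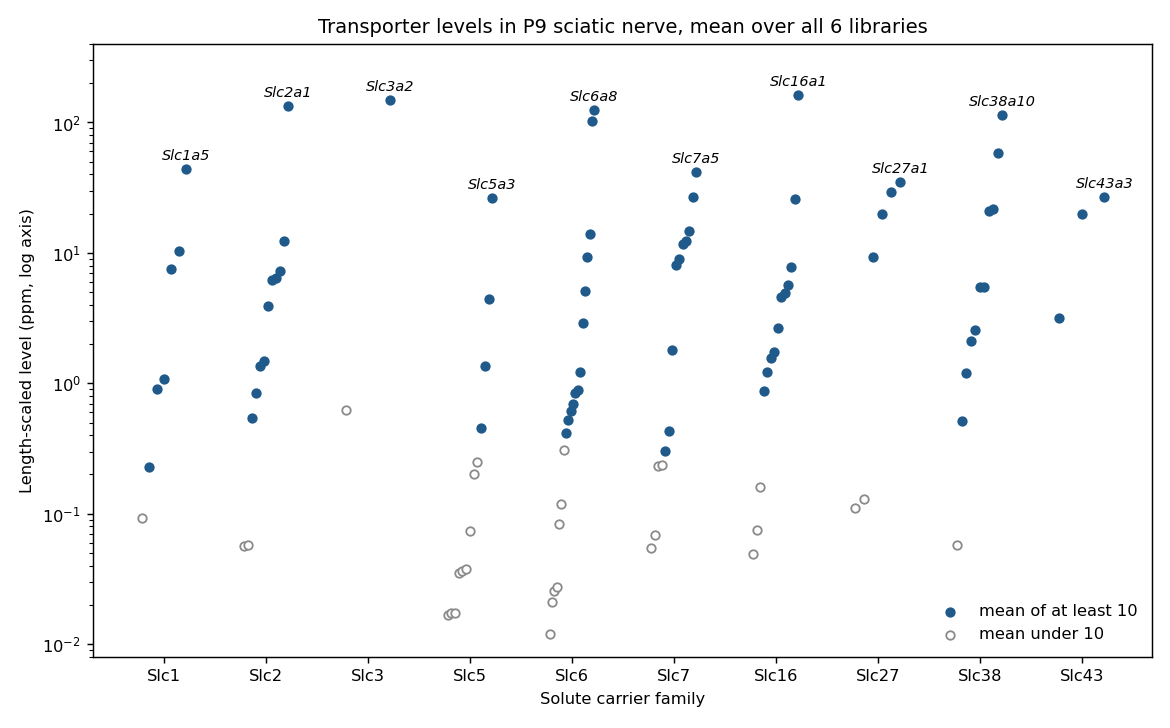
Length-scaled level ppm (log axis) of each transporter gene with a mean above 0, by family, from the authors' mean over all 6 libraries. Filled points have a mean of at least 10, open points a lower one, the highest gene of each family is named, and levels within a family span from under 0.1 ppm to over 100 ppm in Slc6, Slc16, Slc38 and Slc2.

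The 6 genes at 100 ppm or more each serve a different substrate or have a different role. *Slc16a1*, which encodes the monocarboxylate transporter MCT1, was the highest over merged exons at 162 ppm (mean 4846). *Slc3a2*, which encodes the heavy chain of amino acid exchangers, followed at 148 ppm (mean 3539), and *Slc2a1*, which encodes the glucose transporter GLUT1, at 134 ppm (mean 3188). *Slc6a8*, the creatine transporter gene, *Slc38a10*, a less studied gene of the sodium-coupled amino acid transporter family, and *Slc6a6*, the taurine transporter gene, stood at 125, 114 and 103 ppm. The counting intervals of these 6 genes did not overlap with those of their neighbours in the order. The order among them depends on the length used. With the longest transcript as length, *Slc3a2* at 148 ppm and *Slc6a8* at 131.5 ppm stood above *Slc16a1* at 129 ppm, and the unscaled mean was highest for *Slc6a6* at 5901. With the coding sequence, *Slc16a1* was again the highest at 168 ppm, and *Slc38a2* at 118 ppm stood above *Slc38a10* at 77.6 ppm. Farther down, *Slc1a5* and *Slc7a5* could not be told apart by counting error, and over the 72 genes the intervals of 52 of 71 neighbouring pairs overlapped.

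On mm10, *Slc16a1* lies on chromosome 3 from 104638668 to 104658462, *Slc3a2* on chromosome 19 from 8706882 to 8723369 and *Slc2a1* on chromosome 4 from 119108711 to 119137983. Bases before the RefSeq start sites of these 3 genes are shown with those of *Slc2a2*, the hepatic glucose transporter gene, as a family member with a mean of only 2.26. The only *Slc3a2* start among the windows used lies inside the gene as GENCODE bounds it. The starts of the other genes shown lie at or near the gene's edge. Each run holds the 250 bases before the start on the gene's own strand, 5′ to 3′, in RefSeq's GRCm38.p6 windows. They are chr3:104638414-104638663 (plus strand), chr4:119108495-119108744 (plus strand), chr19:8713898-8714147 (minus strand) and chr3:28697653-28697902 (plus strand). Capitals mark every CG pair, the dinucleotide that is dense in CpG island promoters of broadly used genes.
*Slc16a1*: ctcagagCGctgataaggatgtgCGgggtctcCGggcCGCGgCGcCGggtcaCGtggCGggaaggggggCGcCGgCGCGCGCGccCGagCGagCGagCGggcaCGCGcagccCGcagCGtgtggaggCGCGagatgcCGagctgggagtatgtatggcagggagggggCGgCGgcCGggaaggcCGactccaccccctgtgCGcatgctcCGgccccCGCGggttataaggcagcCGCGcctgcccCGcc
*Slc2a1*: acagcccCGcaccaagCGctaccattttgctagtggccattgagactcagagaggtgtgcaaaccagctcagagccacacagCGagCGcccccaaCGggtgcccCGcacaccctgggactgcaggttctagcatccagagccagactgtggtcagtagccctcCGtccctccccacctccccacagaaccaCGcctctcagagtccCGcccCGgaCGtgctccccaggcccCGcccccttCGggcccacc
*Slc3a2*: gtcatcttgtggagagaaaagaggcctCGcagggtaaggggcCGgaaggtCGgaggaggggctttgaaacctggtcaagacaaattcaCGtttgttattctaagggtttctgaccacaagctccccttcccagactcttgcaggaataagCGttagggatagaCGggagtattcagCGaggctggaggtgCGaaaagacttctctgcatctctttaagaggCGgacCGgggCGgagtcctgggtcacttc
*Slc2a2*: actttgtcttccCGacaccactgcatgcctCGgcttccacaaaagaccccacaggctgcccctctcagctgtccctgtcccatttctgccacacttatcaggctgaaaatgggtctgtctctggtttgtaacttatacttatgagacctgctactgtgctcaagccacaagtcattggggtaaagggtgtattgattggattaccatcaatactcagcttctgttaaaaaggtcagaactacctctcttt

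The run of *Slc16a1* holds 37 CG pairs and is 76.4% G and C, that of *Slc2a1* holds 13 and that of *Slc3a2* 11. The run of *Slc2a2* holds 2. Such windows were matched by symbol for 74 of the 103 transporter genes. Of 25 transporter genes at 10 ppm or more, 16 had a window, and *Slc6a8* and *Slc6a6* were among those without. Of 52 matched transporter genes with a mean of at least 10, 31 (59.6%) held 10 or more CG pairs, with a median of 13. Of 22 with a lower mean, 7 (31.8%) did, with a median of 5.5. Over all windows of the same length, 38.2% held 10 or more. Among other protein-coding genes the shares were 71.6% at a mean of at least 10 and 12.7% below it, and no test of these shares was run. CG pairs and level did not go together in every gene. *Slc1a3*, at 7.54 ppm, had 2 CG pairs, and *Slc1a1*, at 0.227 ppm, had 27. *Slc38a4*, at 21.1 ppm, had 3 at the first listed of its 3 starts. Its CG pairs there were 0.172 of the number expected from its C and G content, but the median over its 3 starts was 0.370.

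**Figure D2:**
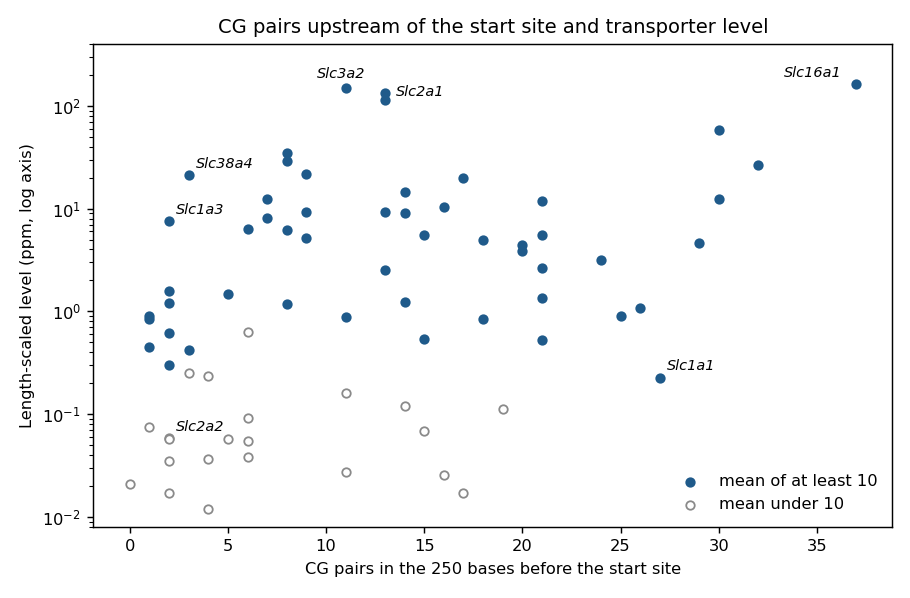
Number of CG pairs in the 250 bases before the start site (x axis) and length-scaled level ppm (y axis, log) of 74 transporter genes. Genes without a matched window, among them *Slc6a8* and *Slc6a6*, are not drawn. Filled points have a mean of at least 10 and open points a lower one, and genes with 10 or more CG pairs occur at high and at low levels.

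By family, Slc6 held the largest share of the summed transporter level at 18.9%, followed by Slc38 at 16.5%, Slc16 at 15.5%, Slc2 at 12.4%, Slc3 at 10.6% and Slc7 at 9.08%. Slc27, Slc1, Slc43 and Slc5 held 6.63%, 4.53%, 3.54% and 2.37%. With no length scaling Slc3 held 6.90% and Slc5 4.15%, ahead of Slc1 at 3.997%. The families differed in how much 1 gene carried. In Slc16, Slc2, Slc3 and Slc5 a single gene held 73.8%, 76.9%, 99.6% and 79.2% of the family's level, and in Slc7 and Slc27 the leading gene held 32.8% and 37.3%.

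**Figure D3:**
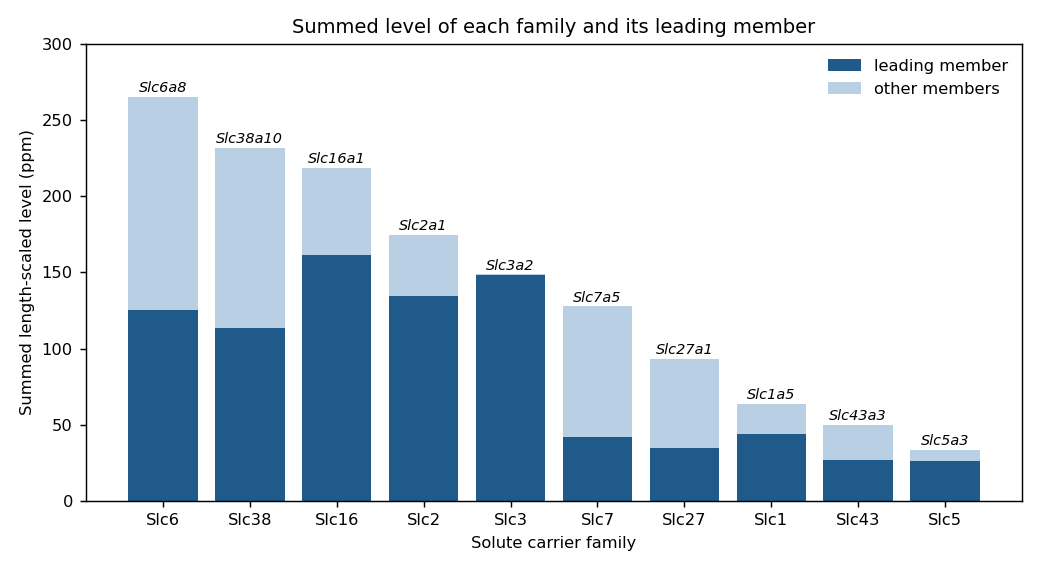
Summed length-scaled level ppm of each family, with its leading gene named and drawn dark and the other genes light. Slc6 has the highest sum at 265 ppm and Slc5 the lowest at 33.4 ppm.

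Family Slc1 holds sodium-coupled carriers of glutamate and of small neutral amino acids. *Slc1a5*, which encodes the glutamine and neutral amino acid exchanger ASCT2, led it at 43.6 ppm (mean 1234), and its relative *Slc1a4*, ASCT1, stood at 10.3 ppm. Among the glutamate transporters, *Slc1a3* (GLAST) was at 7.54 ppm and *Slc1a2* (GLT-1), the main glutamate carrier of brain astrocytes, at 0.905 ppm. The ratio of *Slc1a3* to *Slc1a2* was 8.32, but 14.2 with the longest transcript as length, 5.70 with the coding sequence and 5.41 in unscaled means. *Slc1a6* was at 1.08 ppm, *Slc1a1* (EAAC1) at 0.227 and *Slc1a7* had a mean of 2.10. All 5 glutamate carriers together held 0.699% of the summed transporter level. The exons of *Slc1a1* overlap those of an opposite-strand gene over 31.9% of their length, so its value is uncertain if strand was not counted.

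Family Slc2 holds the facilitative hexose transporters. *Slc2a1* was 18.6 times as high as *Slc2a4*, which encodes the insulin-responsive GLUT4 of muscle and fat (7.21 ppm, mean 170), and 99.1 times as high as *Slc2a3*, the neuronal-type transporter gene (1.35 ppm, mean 66.4). The latter ratio was 48.0 in unscaled means. *Slc2a8* stood second in the family at 12.3 ppm, and the proton-coupled *myo*-inositol transporter gene *Slc2a13*, *Slc2a10* and *Slc2a6* were at 6.38, 6.22 and 3.90 ppm. *Slc2a12* was at 1.49 and the urate transporter gene *Slc2a9* at 0.841 ppm. The fructose transporter gene *Slc2a5* had a mean of 12.4, and *Slc2a2* and *Slc2a7* lay below 10. Genes that govern the surface level of glucose transporters were also present. *Txnip*, whose product drives GLUT1 into the cell, was at 205 ppm and its relative *Arrdc4* at 26.0. *Tbc1d4* and *Aspscr1*, which hold GLUT4 inside cells, were at 9.25 and 19.7 ppm.

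Family Slc5 couples sugars, inositol, vitamins and other solutes to sodium and was the least represented. *Slc5a3*, the sodium *myo*-inositol cotransporter gene, held 79.2% of it at 26.4 ppm (mean 1953). It lies on chromosome 16 from 92058322 to 92087473, within the bounds of *Mrps6* on the same strand, and shares 1.46% of its exon bases with other genes. Reads in shared exons could not be assigned to 1 of such genes. *Slc5a6*, the multivitamin transporter gene, was at 4.46 ppm, the iodide transporter gene *Slc5a5* at 1.35 and the choline transporter gene *Slc5a7*, known from cholinergic neurons, at 0.455. The other 9 of 13 genes, among them the intestinal and renal glucose cotransporter genes *Slc5a1* and *Slc5a2*, had means under 10.

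Family Slc6 couples transmitters, osmolytes and amino acids to sodium and chloride. *Slc6a8* alone held 47.3% of the family's level over merged exons, and *Slc6a6* was close behind it. *Slc6a6* stood above *Slc6a8* in unscaled means (5900.6 against 4428.5) and with the coding sequence as length (162 against 118 ppm). *Slc6a11*, which encodes the GABA transporter GAT3, was at 0.892 ppm. *Slc6a13* (GAT2) was at 9.26 and *Slc6a12*, the betaine transporter gene, at 1.21 ppm. All 6 genes of GABA, taurine and creatine carriers had means of at least 10, and together they held 18.0% of the summed transporter level. The glycine transporter gene *Slc6a9* stood at 5.13 ppm, with opposite-strand genes over 30.3% of its exon length. *Slc6a15*, a neutral amino acid carrier gene, was at 2.88 ppm. Monoamine carriers were low, with 0.843 ppm for the serotonin transporter gene *Slc6a4*, 0.695 for the noradrenaline transporter gene *Slc6a2*, which marks sympathetic neurons, and a mean of 0.600 for the dopamine transporter gene *Slc6a3*. *Slc6a17*, *Slc6a19* and *Slc6a20a* had means of 42.6, 14.2 and 14.5, and 7 of 20 genes lay below 10. *Tmem27*, whose product collectrin carries *Slc6a19*-type transporters to the membrane in the kidney, had a mean of 9.59.

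Families Slc3 and Slc7 work in pairs. A glycoprotein heavy chain of Slc3 binds a light chain of Slc7, which does the transport. *Slc3a2*, which encodes the heavy chain 4F2hc (CD98), was compared with 6 light chains listed for it. It was 1.71 times as high as these together (148 against 86.3 ppm), or 3.34 times without the highest of them. With all 6 light chains the ratio was 1.87 with the longest transcript as length and 1.43 with the coding sequence. Of these light chains, *Slc7a5* (LAT1), the exchanger of large neutral amino acids, was the highest at 41.9 ppm, or 48.6% of their sum. *Slc7a8* (LAT2), *Slc7a6*, *Slc7a10* (Asc-1) and *Slc7a7* were at 14.6, 12.3, 9.0 and 8.09 ppm. The cystine and glutamate exchanger gene *Slc7a11* (xCT) was the lowest at 0.303 ppm (mean 28.5). Opposite-strand exons of *Lrp3* cover 17.9% of those of *Slc7a10*. All 6 listed light chains had a mean of at least 10. The other heavy chain system, known from kidney and gut, was near the limit. *Slc3a1* had a mean of 9.59, with exons of the opposite-strand gene *Prepl* over 26.5% of its own, and its light chain genes *Slc7a9* and *Slc7a13* had means of 4.30 and 3.35.

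**Figure D4:**
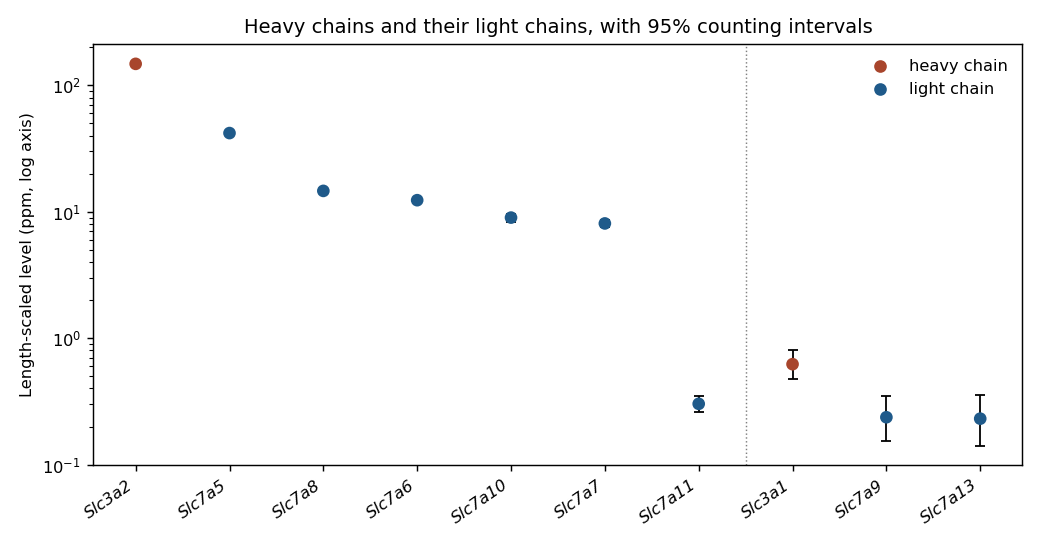
Length-scaled level ppm (log axis) of the heavy chain genes (red) and their light chain genes (blue), with 95% counting intervals as bars. *Slc3a2* and the 6 light chain genes listed for it stand left of the dotted line, and *Slc3a1* with its light chain genes, all under 1 ppm, right of it.

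The cationic amino acid transporters of Slc7 need no heavy chain. *Slc7a2*, which encodes an arginine carrier, was 2.28 times as high as *Slc7a1*, at 26.9 and 11.8 ppm, and 1.64 times with the longest transcript as length. *Slc7a3* had a mean of 11.1 and *Slc7a4* one of 50.4. *Slc7a14* had a mean of 4.57. *Slc7a15*, which was not assigned to the cationic carriers or to a heavy chain here, had a mean of 1.11.

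Family Slc16 was carried by *Slc16a1*. It was 35.3 times as high as *Slc16a3*, which encodes MCT4, the lactate exporter of glycolytic cells (4.58 ppm, mean 165). That ratio was 28.8 with the longest transcript as length, 28 with the coding sequence and 29.4 in unscaled means. *Slc16a7*, which encodes MCT2 of neurons, was at 1.74 ppm (mean 140). *Bsg*, which encodes the chaperone that brings MCT1 and MCT4 to the membrane, was at 881 ppm, whereas *Emb*, the chaperone gene for MCT2, was at 1.95. *Slc16a13*, *Slc16a6*, *Slc16a9* and *Slc16a10*, the last of which carries aromatic amino acids, were at 7.84, 5.66, 4.90 and 2.66 ppm. Opposite-strand genes cover 22.5% of the exon length of *Slc16a6* and 23.5% of that of *Slc16a9*. *Slc16a4*, *Slc16a11* and *Slc16a12* stood at 1.57, 1.23 and 0.873 ppm, and *Slc16a5*, *Slc16a8* and *Slc16a14* had means under 10.

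Family Slc27 encodes fatty acid transport proteins, which also join fatty acids to coenzyme A. *Slc27a1* (FATP1) and *Slc27a4* (FATP4) were at 34.8 and 29.2 ppm, with means of 1376 and 874. Their ratio was 1.19, and 1.99 with the longest transcript as length. *Slc27a6* and *Slc27a3* followed at 19.9 and 9.22 ppm, and the liver genes *Slc27a2* and *Slc27a5* had means of 2.84 and 2.15. All 11 genes listed for fatty acid uptake and binding had means of at least 10, as did 66.1% of all protein-coding genes. *Pmp2*, which encodes the fatty acid binding protein of peripheral myelin, was the highest of the 11 at 798 ppm. *Fabp4* and *Cd36*, which endothelial cells and adipocytes use, were at 114 and 88.4 ppm. *Acsl3* and *Acsl1*, which encode fatty acid activating enzymes, were at 81.4 and 35.8 ppm. The rest were lower, with *Acsl4*, *Acsl5*, *Fabp3* and *Fabp5* at 15.7, 15.0, 13.0 and 12.65 ppm. *Fabp7* and *Acsl6* were at 2.15 and 0.606 ppm.

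Family Slc38 holds sodium-coupled carriers of glutamine and other neutral amino acids. *Slc38a2* (SNAT2), known to respond to amino acid supply, was at 57.9 ppm (mean 3467) and 27.4 times as high as *Slc38a1* (SNAT1), which lies 44.5 kb from it on chromosome 15 and was at 2.11 ppm. This ratio was 16.7 with the longest transcript as length, 14.1 in unscaled means and 13.5 with the coding sequence. The lysosomal carrier genes *Slc38a7* and *Slc38a9*, the second known as an arginine sensor of the mTORC1 pathway, were at 21.7 and 5.49 ppm, with *Slc38a4* at 21.1. The gap between *Slc38a7* and *Slc38a9* depends on the length used. With the coding sequence they were at 22.5 and 18.9 ppm, and their unscaled means were 609 and 621. *Slc38a6* was at 5.52 and *Slc38a11* at 2.54 ppm. *Slc38a5* and *Slc38a3*, known as glutamine carriers of glia and liver, were at 1.19 and 0.519 ppm, and *Slc38a8* alone of the 11 genes had a mean under 10.

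All 3 genes of family Slc43 had means of at least 10. *Slc43a3*, a purine nucleobase transporter gene, was at 26.7 ppm (mean 807), *Slc43a2* (LAT4), which carries large neutral amino acids, at 19.9 (mean 1357), and *Slc43a1* (LAT3) at 3.15 (mean 122). The first and second of these change places in unscaled means.

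Some transporter genes of the same family lie next to each other on a chromosome. Of 10 pairs that followed each other within 100 kb, the higher gene was over 5 times the lower in 8. The share among other gene pairs was not computed, so this count cannot be read as a trait of neighbours. The ratio of *Slc6a19* over *Slc6a18* was only 5.06, with a mean of 2.48 for *Slc6a18*. That of *Slc2a5* over *Slc2a7* rests on a mean of 0.722 for *Slc2a7*. Over merged exons, the highest ratios were those of *Slc38a2* over *Slc38a1* (27.4, and 13.5 with the coding sequence) and *Slc6a20a* over *Slc6a20b* (25.0). The ratio for *Slc6a20a* rests on a mean of 1.21 for *Slc6a20b*, and reads of this close gene pair may not have been fully separated. *Slc5a4a* and *Slc5a4b* had means of 0.511 and 0.762.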

How the data were processed

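Sciatic nerves at postnatal day 9 had been collected from 3 control and 3 *Ep400ΔPNS* mice. For the authors' table, libraries were made with a stranded mRNA kit and mapped to mm10 by STAR (submitters' notes, 2.5.1). HTSeq then counted reads that mapped uniquely, and the counts entered a differential expression package. No source used here states the strand setting of the counting. The file header names Ensembl release 82 and the methods another release, and the methods also give another strain background than the labels. The signal column that the authors deposited, headed raw mean counts, was taken as a mean over 6 libraries of counts normalized by size factors, since 6 times the value was whole for 0% of genes (tolerance 1e-06). It is the only column of levels, so depth and spread of single libraries are not analysed here. The remaining number columns hold the authors' own comparison of the genotypes (fold change, its error, statistic and p-values) and were not used, so no test was run.

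Of 46603 rows, 46005 were matched by gene ID to GENCODE M21 on the same assembly, which gave coordinates, merged exon lengths and exon overlaps. Levels were scaled over the 30396 genes with a length and a mean above 0, and the arithmetic of the scaling was checked on simulated reads. These were drawn with the same lengths and with counting error only. The check therefore cannot test the choice of length or the spread between mice. Counting intervals are exact Poisson intervals at 95%. Promoter windows came from RefSeq, with the first listed start of each gene. Members and lists were chosen with earlier results of these data known. Named by rule were, in each family, the 6 highest levels among means of 10 or more, and both heavy chain systems with their light chains. Other members, the substrate groups, the ratios other than that of *Slc3a2*, the neighbour pairs and the promoter windows with their limits were chosen after the members' means were seen. Alternatives were other mean minimums, other gene lengths and no length scaling. Python 3.11.15, pandas 2.3.3 and scipy 1.17.1 were used. Values of a few genes are not reported here.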

Additional observations from a re-analysis of the deposited data

How the results depend on the processing

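The number of transporter genes above the mean minimum was 72 at 10, 94 at 1 and 51 at 50, and 73 for protein-coding rows only, which include *Slc7a6os*. The leading gene was the same in 10 of 10 families with the longest transcript as length and in 7 with no scaling, where *Slc6a6*, *Slc7a2* and *Slc43a2* led. With the longest coding sequence as length, chosen after seeing the data, it was the same in 6, *Slc38a2* leading Slc38 as well. The ratio of *Slc3a2* to its light chains was 1.87 with the longest transcript, 1.56 with no scaling, 1.43 with the coding sequence and 3.34 without *Slc7a5*. With no scaling the shares of the summed level were 23.0% for Slc6, 21.2% for Slc38, 12.8% for Slc16, 9.59% for Slc7, 8.52% for Slc2, 6.90% for Slc3, 5.35% for Slc27, 4.45% for Slc43, 4.15% for Slc5 and 3.997% for Slc1. With the longest transcript they were 20.6% for Slc6, 18.4% for Slc38, 12.6% for Slc16, 10.7% for Slc2, 8.61% for Slc7, 7.04% for Slc27, 5.21% for Slc1, 4.4% for Slc43 and 1.93% for Slc5, and that of Slc3 stayed within its counting interval at 10.5%. Levels of the 72 genes changed by a factor between 0.797 and 1.89 with the longest transcript and between 0.444 and 4.12 with the coding sequence. Lengths assume that all annotated exons are used, and the isoforms present were not measured. Leaving out a replicate could not be done on a mean of all libraries, and a test of the genotypes on single libraries, planned in case of such columns, was not run. No paired analysis was possible because no values of single libraries were given.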
